A study of Mus musculus with 9 samples.

Results

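The genes described here mark the output neurons of the striatum, the medium spiny neurons (MSNs), which send their axons along either the direct or the indirect pathway of the basal ganglia. The members were 4 direct pathway genes (*Drd1*, *Tac1*, *Pdyn* and *Eya1*) and 4 indirect pathway genes (*Drd2*, *Adora2a*, *Penk* and *Gpr6*), chosen by name, and all 8 were found by symbol among the 15464 genes of the table. Each of the 8 was among the 14239 genes that passed the filter of at least 10 normalized counts in at least 3 libraries.

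The striatum of male mice in a C57BL/6J background, 10 to 12 weeks old, was sequenced from 3 wild-type (WT) mice, 3 Shank3 heterozygous mice (HET) and 3 Shank3 knockout mice (KO), with 1 library per mouse. HET and KO mice carry the *Shank3B* allele, in which part of *Shank3*, the gene of an excitatory postsynaptic scaffold, is targeted in every cell, and the 3 genotypes were littermates. The study asked whether gene expression in the striatum follows the dosage of *Shank3*. The values are read counts per gene that the authors divided by a size factor for each library (normalized counts).

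Direct pathway MSNs carry the dopamine D1 receptor, which raises cAMP, and release substance P and dynorphin along with GABA. Indirect pathway MSNs carry the dopamine D2 receptor, which lowers cAMP, and an adenosine receptor, the product of *Adora2a*, which raises it, and they release enkephalin along with GABA. Dopamine thus acts in opposite ways on the pathways, and the balance between them shapes the start and the suppression of movement.

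RefSeq promoter windows on GRCm38.p6 were matched for 5 of the 8 genes, and *Eya1*, *Adora2a* and *Penk* had none in the table used. Because cAMP is the messenger that dopamine and adenosine receptors act on in these neurons, the 250 bases before each start were searched on both strands for the cAMP response element, a palindrome of the letters TGACGTCA, for its half-site TGACG, which the full element contains, and for the TATA motif TATAAA. A dopamine receptor gene of each pathway, the indirect pathway gene with a full element and the direct pathway gene with a half-site are shown here 5′ to 3′ on the strand of the gene, with matched letters in capitals. The windows of *Drd1* (chr13:54055706-54055908, minus strand) and *Tac1* (chr6:7554811-7554878, plus strand) are cut where a GENCODE transcript of the gene begins, and those of *Drd2* (chr9:49340153-49340402, plus strand) and *Gpr6* (chr10:41072291-41072540, minus strand) are whole.
Drd1: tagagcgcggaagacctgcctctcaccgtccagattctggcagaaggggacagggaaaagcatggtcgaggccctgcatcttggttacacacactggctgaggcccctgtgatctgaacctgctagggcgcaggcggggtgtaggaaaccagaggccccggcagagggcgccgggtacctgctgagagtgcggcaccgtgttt
Tac1: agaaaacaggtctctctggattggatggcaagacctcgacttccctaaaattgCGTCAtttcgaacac
Drd2: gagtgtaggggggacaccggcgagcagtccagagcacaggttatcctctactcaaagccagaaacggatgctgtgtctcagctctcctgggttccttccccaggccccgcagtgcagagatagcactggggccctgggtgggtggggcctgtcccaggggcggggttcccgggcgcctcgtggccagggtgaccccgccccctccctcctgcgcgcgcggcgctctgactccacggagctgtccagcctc
Gpr6: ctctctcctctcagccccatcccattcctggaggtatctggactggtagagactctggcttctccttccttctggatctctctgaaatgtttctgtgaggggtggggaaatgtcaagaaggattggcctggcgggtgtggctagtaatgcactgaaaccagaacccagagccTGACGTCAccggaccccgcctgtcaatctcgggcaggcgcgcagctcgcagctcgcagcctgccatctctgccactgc

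The full element was found in the *Gpr6* window, beginning 78 bases before the start, and in 1.55% of all 32851 windows of this length. The half-site alone was found on the reverse strand in *Tac1*, beginning 197 bases before the start in the stretch shown and 43 bases before it in the stretch not shown, and 17.8% of all windows held it on either strand. The *Drd1*, *Drd2* and *Pdyn* windows held none of the 3 motifs. TATAAA was in none of the windows of these 5 genes and in 12.4% of all windows. A match is a string of letters and not a measured site.

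Each of the 9 libraries summed to between 30830020 and 33790296 normalized counts, a total that follows the normalization, so that the depth in reads is unknown. No library was a copy of another. *Shank3* had between 6043 and 8812 normalized counts in the WT, between 7098 and 8050 in the HET and between 10237 and 10798 in the KO striatum. A sum over the whole gene also counts the exons that are not targeted and does not check the labels. HET replicate 3 and KO replicate 3 stood apart from the other libraries on the first principal component, which held 33.6% of the variance. The tissue label was checked with 12 genes of MSNs of both pathways (pan-MSN genes, among them *Ppp1r1b*, *Rgs9*, *Pde10a*, *Pde1b*, *Bcl11b*, *Foxp1*, *Adcy5*, *Gnal*, *Gng7*, *Rasd2* and *Meis2*), and all 12 were present in every library. Their summed level was between 139968 and 270152 normalized counts in the WT, between 181060 and 245509 in the HET and between 144130 and 197954 in the KO striatum, lowest in WT replicate 3 and KO replicate 3. The 6 cortical neuron markers summed to between 41339 and 53626, between 36790 and 51225 and between 41033 and 57914, and WT replicate 3 and KO replicate 3 were the highest of their genotypes. The 6 oligodendrocyte markers were highest in WT replicate 3 (253632) and lowest in KO replicate 3 (132901), and the part of these cells in the results was not tested.

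No direct pathway gene differed between genotypes by more than the spread between mice. *Drd1* (ENSMUSG00000021478, chromosome 13, 54051183 to 54055705, minus strand of GRCm38) encodes the D1 receptor. The WT libraries had 5028, 4522 and 2370 normalized counts, the HET libraries 5086, 3195 and 3969, and the KO libraries 4003, 3214 and 2508. WT replicate 3 was the lowest of the 9 libraries, below each KO library, and the 3 genotypes overlapped. As fitted with limma on log2(normalized count + 1), a scale that understates changes of low genes, the log2 fold change was 0.09 (standard error 0.28) in HET and −0.25 (standard error 0.28) in KO against WT.

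*Tac1* (ENSMUSG00000061762, chromosome 6, 7554879 to 7565834, plus strand) encodes the precursor of substance P. It had 3049, 3070 and 1634 normalized counts in the WT, 3301, 2264 and 1664 in the HET and 2944, 2882 and 1390 in the KO libraries. In each genotype replicate 3 was the lowest library, and the other KO libraries lay within the range of WT. Its log2 fold change was −0.10 (standard error 0.35) in HET and −0.12 (standard error 0.35) in KO.

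*Pdyn* (ENSMUSG00000027400, chromosome 2, 129686565 to 129699844, minus strand) encodes prodynorphin, the source of the opioid peptides that act on the kappa receptor. Its normalized count was 1642, 1390 and 1130 in the WT, 2369, 1340 and 1178 in the HET and 1889, 2179 and 960 in the KO libraries. HET replicate 1, KO replicate 1 and KO replicate 2 were above each WT library, while KO replicate 3 was below each of them. *Pdyn* was the only member with a higher fitted value in KO than in WT, with a log2 fold change of 0.20 (standard error 0.33), and in HET it was 0.18 (standard error 0.33). Neither passed the test.

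*Eya1* (ENSMUSG00000025932, chromosome 1, 14168954 to 14310235, minus strand) encodes a transcriptional coactivator with phosphatase activity and had the lowest level of the 8 genes. It had 350.9, 285.3 and 251.6 normalized counts in the WT, 230.6, 242.8 and 314.7 in the HET and 281.5, 225.2 and 368.9 in the KO libraries. Unlike the other direct pathway genes, it was highest in KO replicate 3. Against WT, the log2 fold change was −0.17 (standard error 0.21) in HET and −0.04 (standard error 0.21) in KO.

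The indirect pathway genes each had a lower mean in KO than in WT, and none of these differences was larger than the spread between mice. *Drd2* (ENSMUSG00000032259, chromosome 9, 49340627 to 49408177, plus strand) encodes the D2 receptor, which cholinergic interneurons and dopamine axons also use. The WT libraries had 3551, 4703 and 2058 normalized counts, the HET libraries 3447, 2613 and 5160, and the KO libraries 2984, 2647 and 2481. The KO libraries lay close together, between the WT libraries. On the log2 scale, the difference from WT was 0.15 (standard error 0.30) in HET and −0.27 (standard error 0.30) in KO.

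*Adora2a* (ENSMUSG00000020178, chromosome 10, 75316877 to 75334784, plus strand) encodes the adenosine receptor of the striatum that raises cAMP and had the smallest p of the 8 genes in KO. It had 5994, 8087 and 3555 normalized counts in the WT, 5585, 4826 and 7107 in the HET and 4627, 3960 and 3426 in the KO libraries. Each KO library was below each HET library, but WT replicate 3 was below KO replicates 1 and 2. In KO the log2 fold change was −0.49 (standard error 0.26, 95% interval −1.07 to 0.10), and limma gave a Benjamini-Hochberg adjusted p of 0.999. The exact permutation test over libraries, two-sided, returned p = 0.3. Without WT replicate 3 the log2 fold change was −0.81, with an unadjusted p of 0.0028 and an adjusted p of 1.00 in limma, and without WT replicate 2 it was −0.22.

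*Penk* (ENSMUSG00000045573, chromosome 4, 4133531 to 4138819, minus strand) encodes proenkephalin, the source of the enkephalins. Its normalized count was 20022, 24454 and 12864 in the WT, 20940, 19018 and 15407 in the HET and 18919, 18036 and 10857 in the KO libraries. As for *Tac1*, replicate 3 was the lowest library in each genotype. For HET the log2 fold change was −0.01 (standard error 0.26) and for KO −0.26 (standard error 0.26).

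*Gpr6* (ENSMUSG00000046922, chromosome 10, 41069977 to 41072285, minus strand) encodes an orphan receptor that signals to cAMP without an added ligand. It had 1758, 1877 and 1007 normalized counts in the WT, 1788, 1125 and 2387 in the HET and 1460, 1246 and 1158 in the KO libraries. The highest and the second lowest of the 9 values were both from HET mice, and the KO values fell between those of WT replicate 3 and WT replicate 1. Its log2 fold change was 0.18 (standard error 0.28) in HET and −0.22 (standard error 0.28) in KO.

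**Figure D1:**
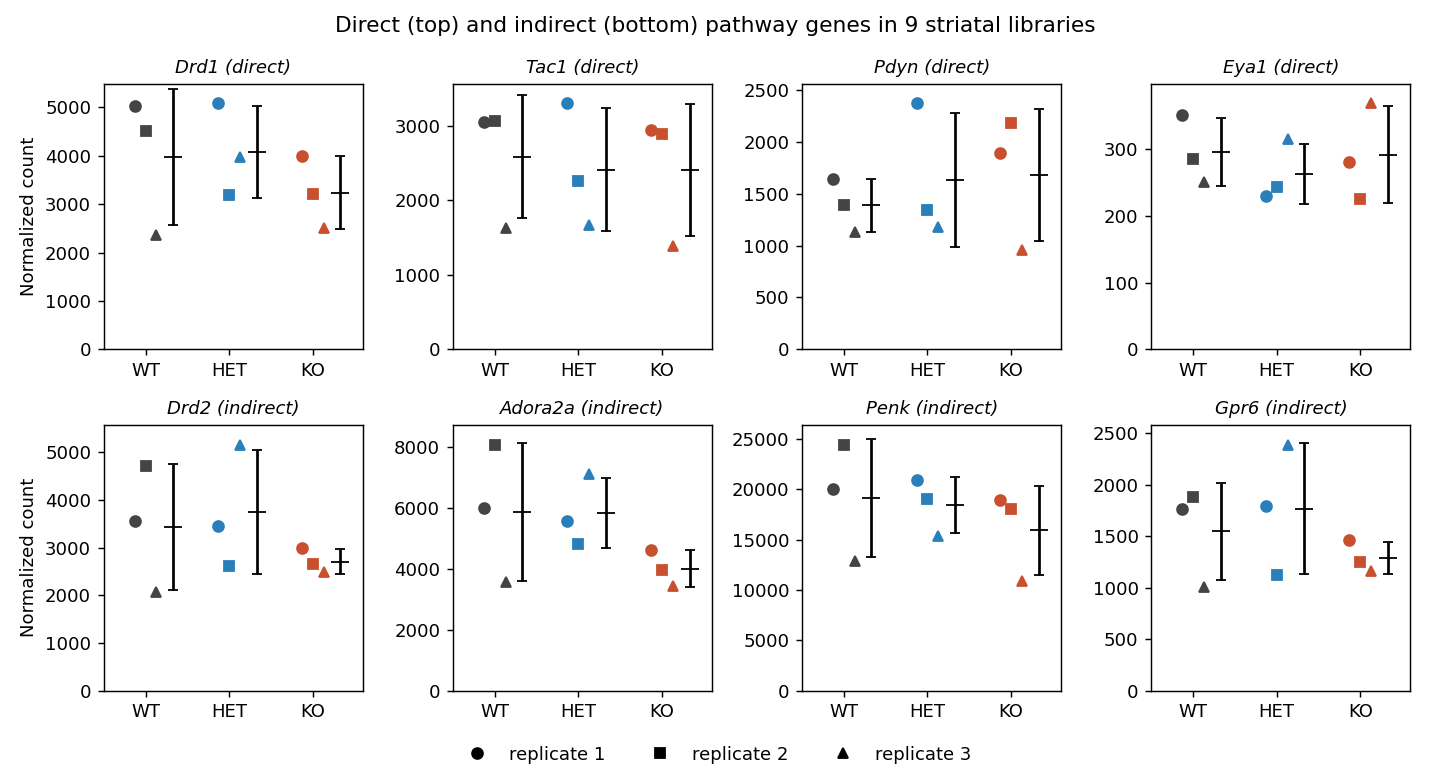
Normalized count of each direct (top) and indirect (bottom) pathway gene in the 9 striatal libraries, by genotype; symbols give the replicate number and bars the mean ± SD of 3 mice. Replicate 3 is the lowest WT library for all 8 genes, and the genotypes overlap for each gene between WT and HET and between WT and KO.

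The spread between libraries was wide for these genes. Over the 9 libraries the highest value was 1.64 times the lowest for *Eya1* and between 2.15 times (*Drd1*) and 2.51 times (*Drd2*) the lowest for the other 7 genes. In the WT striatum the SD over 3 mice was between 17.1% (*Eya1*) and 38.6% (*Adora2a*) of the mean. In the KO striatum it was between 9.48% (*Drd2*) and 38.0% (*Pdyn*) of the mean. The median standard error of the log2 fold change was 0.28 for the 8 genes and 0.15 for all genes tested.

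Per kilobase of merged exon length, *Penk* was the most abundant of the 8 genes. In the WT striatum the level was 11697 ± 3579 normalized counts per kilobase (SD, n = 3 mice) for *Penk*, 1920 ± 741 for *Adora2a*, 1350 ± 521 for *Drd2*, 1095 ± 389 for *Drd1*, 866 ± 264 for *Gpr6*, 760 ± 242 for *Tac1*, 481 ± 88.7 for *Pdyn* and 37.9 ± 6.47 for *Eya1*. The order of the means was the same in HET and KO. Over the WT mice the ranges of *Penk* and *Eya1* were apart from those of their neighbours, whereas the ranges of the neighbours from *Adora2a* to *Pdyn* overlapped. Within each WT library the 8 genes stood in the same order. In each of the 9 libraries *Adora2a* was above *Drd2* and *Tac1* above *Pdyn*, while the neighbours from *Drd2* to *Tac1* changed places in a HET library. *Tac1* was also above *Gpr6* in KO replicate 1 (866, against 818) and KO replicate 2 (848, against 698). The isoforms used in the striatum are not known from gene sums, and the merged length of *Tac1* (3.399 kilobases) is well above its longest coding transcript (1230 bases).

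For HET against WT, limma with Benjamini-Hochberg adjustment called 0 of the 8 genes at an adjusted p of 0.05 and 0% of all genes tested. At an unadjusted p of 0.05 limma called 0 of the 8, against 1.11% of all genes. The libraries of the genotypes overlapped for each of the 8 genes, whereas 2.19% of all genes lay wholly lower and 2.25% wholly higher in HET, 4.45% in either direction. Of the 8 genes, 5 had a higher and 3 a lower fitted value in HET, with a median log2 fold change of 0.07 (−0.003 over all genes tested). The widest 95% interval was that of *Tac1*, from −0.88 to 0.68, and the narrowest that of *Eya1*, from −0.63 to 0.29.

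For KO against WT, limma called 0 of the 8 genes at an adjusted p of 0.05 (0% of all genes) and 0 at an unadjusted p of 0.05, against 0.822% of all genes. *Shank3*, with each KO library above each WT library, was not called either (log2 fold change 0.54, adjusted p = 0.999 in limma). With another test, the paper reported differentially expressed genes in HET and KO. *Shank3* in KO was among them, and the paper's qRT-PCR also found it raised. A count of 0 here is not evidence that no gene changed. WT and KO libraries overlapped for each of the 8 genes, and 2.51% of all genes lay wholly lower and 2.02% wholly higher in KO, 4.54% in either direction. A lower fitted value in KO was found for 7 of the 8 genes, all except *Pdyn*. The median log2 fold change was −0.08 for the direct and −0.26 for the indirect pathway genes, against 0.005 over all genes tested. The 12 pan-MSN genes also had lower fitted values in KO, 12 of 12, with a median of −0.27 and 0 of 12 at an unadjusted p under 0.05 in limma. In bulk tissue, fewer MSNs and less RNA per MSN cannot be told apart. Without WT replicate 3, which was low in the pan-MSN genes, 3 of the 8 genes had an unadjusted p under 0.05 in limma, and 0 passed the adjusted threshold. They were *Adora2a*, *Drd1* (log2 fold change −0.58) and *Drd2* (−0.60). Over all genes, 289 of 14194 had an unadjusted p under 0.05 in this fit, against 117 of 14239 with every library. Leaving out another WT library moved the values the other way, to −0.0039 for *Drd2* and −0.053 for *Gpr6* without WT replicate 2 and to −0.040 for *Drd1* without WT replicate 1.

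For KO against HET, 0 of the 8 genes passed the adjusted threshold (limma with Benjamini-Hochberg adjustment; 0% of all genes) and 0 the unadjusted one, against 1.31% of all genes. With the replicate number as a block, 318 in place of 186 genes passed the unadjusted threshold, and the 8 genes still gave 0. The log2 fold change was −0.54 (standard error 0.26, 95% interval −1.12 to 0.05) for *Adora2a*, −0.42 (standard error 0.30) for *Drd2*, −0.40 (standard error 0.28) for *Gpr6* and −0.33 (standard error 0.28) for *Drd1*. It was −0.24 for *Penk*, −0.03 for *Tac1*, 0.03 for *Pdyn* and 0.14 for *Eya1*. The 12 pan-MSN genes were lower in fitted value in KO than in HET, 12 of 12, with a median of −0.35, and at equal pan-MSN level *Adora2a* was at −0.17, *Drd2* at −0.02 and *Gpr6* at −0.03. The KO libraries lay wholly below the HET libraries for 1 of the 8 genes, *Adora2a* (p = 0.1 by exact permutation, two-sided, which is the smallest possible with 3 mice against 3), against 2.19% of all genes. They lay wholly above for 0 of the 8, against 2.25% of all genes, and 4.45% of all genes were apart in either direction. *Adora2a* had an unadjusted p of 0.0145 in limma without WT replicate 3 and of 0.0331 without WT replicate 2, and *Gpr6* of 0.0258 without HET replicate 2. Without HET replicate 3 the log2 fold change was smaller in size, −0.39 for *Adora2a*, −0.15 for *Drd2* and −0.15 for *Gpr6*.

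The level of these genes was also compared with that of the pan-MSN genes in the same library. The slope of each gene's log2 level on the mean log2 level of the 12 pan-MSN genes was fitted across all genes with the genotype in the model, so that a slope of 1 stands for a level proportional to the pan-MSN level. This fit was chosen after the values were seen. The slope was 1.24 (standard error 0.23) for *Drd2*, 1.21 (standard error 0.21) for *Drd1*, 1.17 (standard error 0.23) for *Gpr6* and 1.16 (standard error 0.16) for *Adora2a*, the 4 receptor genes. For the peptide precursors it was 1.14 (standard error 0.42) for *Tac1*, 0.94 (standard error 0.28) for *Penk* and 0.78 (standard error 0.45) for *Pdyn*. *Eya1* had a slope of 0.13 (standard error 0.33). The cortical neuron markers had negative slopes, 6 of 6, between −0.75 and −0.33 with a median of −0.63, and the thalamic and septal markers had a median of −0.47. The part of these cells in the slopes was not tested.

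A positive slope with an unadjusted p under 0.05 was found for 6 of the 8 genes (all except *Pdyn* and *Eya1*), against 3.37% of the 14227 genes outside the pan-MSN list, and a negative one for 0 of the 8, against 2.09%. *Adora2a* ranked 5, *Drd1* 19, *Drd2* 30 and *Gpr6* 38 of these genes by p. None of the 8 genes, and 0% of all genes, passed an adjusted p of 0.05 in limma with Benjamini-Hochberg adjustment, and the adjusted p was 0.131 for *Adora2a* and 0.18 for *Drd1*. Without the genotype in the model, 4 of the 8 genes and 63 of the 14227 genes had a positive slope that passed it, and negative slopes were not counted. Without WT replicate 3 and KO replicate 3 the unadjusted count was 3 (486 of 14139 genes), and the slopes of *Tac1* and *Penk* were −0.21 and −0.09. The 8 genes and the pan-MSN genes are all MSN markers, so positive slopes are not particular to the pathway genes. The cholinergic interneuron markers *Chat*, *Slc5a7* and *Slc18a3* had slopes of 1.31 (standard error 0.23), 1.18 (standard error 0.28) and 0.73 (standard error 0.30). Other interneuron genes, *Sst*, *Npy*, *Pvalb* and *Th*, had slopes between −0.70 and −0.09.

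**Figure D2:**
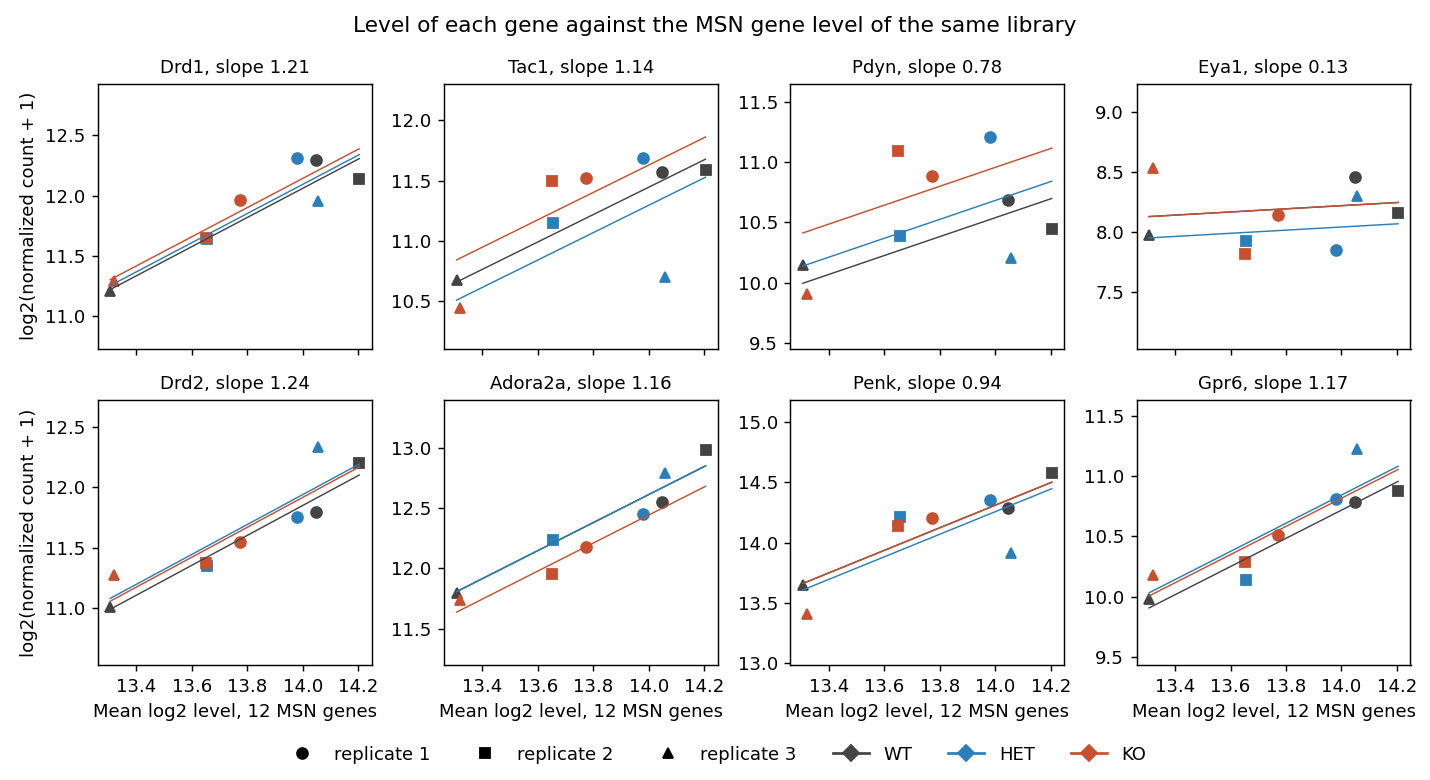
log2(normalized count + 1) of each gene (vertical axis) against the mean log2 level of the 12 pan-MSN genes in the same library (horizontal axis); each point is 1 mouse, and lines have the slope fitted by limma with a separate height for each genotype. The 4 receptor genes lie close to their lines, the peptide precursors *Tac1*, *Pdyn* and *Penk* scatter more, with HET replicate 3 below the line, and *Eya1* is nearly flat.

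Compared at equal pan-MSN level, the fitted differences between KO and WT lay closer to 0 for 6 of the 8 genes, and further from 0 for *Tac1* and *Pdyn*. The log2 fold change of *Adora2a* in KO against WT was −0.17 (standard error 0.12) instead of −0.49, that of *Drd2* 0.07 (standard error 0.17) instead of −0.27, that of *Drd1* 0.08 (standard error 0.15) instead of −0.25, and that of *Penk* −0.0009 (standard error 0.20) instead of −0.26. *Tac1* was at 0.18 (standard error 0.30) instead of −0.12, and *Pdyn* at 0.42 (standard error 0.32, 95% interval −0.31 to 1.15) instead of 0.20. In HET against WT the values lay between −0.18 (*Eya1*) and 0.14 (*Pdyn*). In each of the 3 comparisons 0 of the 8 genes passed an adjusted or an unadjusted p of 0.05 in limma, against 0% of all genes adjusted and 1.1% (HET against WT), 0.724% (KO against WT) and 0.963% (KO against HET) of all genes unadjusted.

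**Figure D3:**
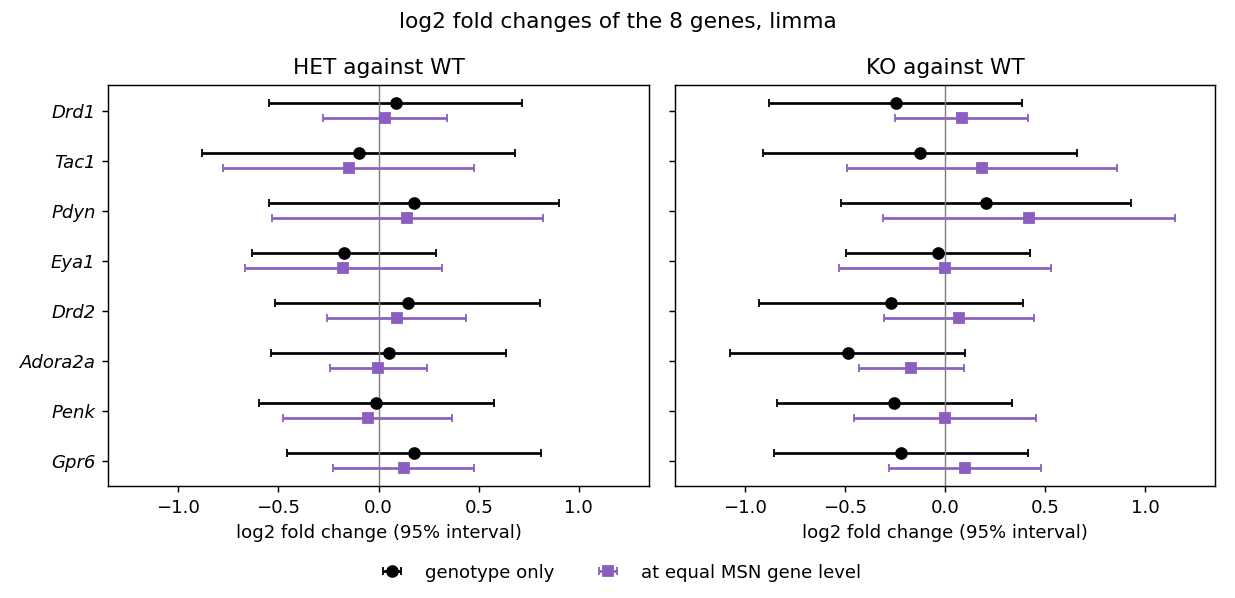
log2 fold change of each gene in HET (left) and KO (right) against WT with its 95% interval from limma; black circles are from the fit with genotype only and purple squares from the fit that also holds the pan-MSN level. Each interval includes 0, and for KO the purple values of the receptor genes lie closer to 0 than the black ones.

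The balance of the pathways was measured as the mean log2 level of the 4 direct genes minus that of the 4 indirect genes in the same library. It is not corrected for gene length, so only its differences between libraries can be read, and as a score over chosen genes it was given no test. It was −1.60, −2.08 and −1.61 in the WT libraries, −1.57, −1.71 and −2.28 in the HET libraries and −1.48, −1.42 and −1.61 in the KO libraries. With 3 mice each, the WT mean was −1.76 ± 0.27 (SD), the HET mean −1.85 ± 0.37 and the KO mean −1.50 ± 0.09.

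KO replicates 1 and 2 lay above each other library, whereas KO replicate 3 was level with WT replicates 1 and 3. This order and the narrow KO spread depended on *Eya1*. Without *Eya1* the KO mean was −0.76 ± 0.30 (SD), against −1.01 ± 0.23 in WT, a difference of 0.25. HET replicate 1 (−0.60) was then above KO replicate 1 (−0.65). KO replicate 3 was then below WT replicates 1 (−0.84) and 3 (−0.93). With *Eya1* included, the difference between KO and WT was 0.26 on the log2 scale, close to the SD of the WT mice. It was 0.10 without WT replicate 2, the WT library with the most *Adora2a* and *Penk*. The difference between HET and WT was −0.09, and it turned to 0.12 without HET replicate 3, in which *Drd2* and *Gpr6* were highest and *Tac1* was among the lowest. That between KO and HET was 0.35, and 0.14 without HET replicate 3. The mean log2 level of the indirect genes minus that of the pan-MSN genes ranged over 0.22 in the 9 libraries. That of the direct genes, which include *Eya1* with its slope of 0.13, ranged over 0.63. The median slope on the pan-MSN level was 0.96 for the direct and 1.17 for the indirect genes, so the balance can also move with that level. The part of the pan-MSN level in the balance was not tested.

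Pairs of genes with matched roles were compared in the same way. The log2 level of *Drd1* minus that of *Drd2* was 0.22 ± 0.28 (SD, n = 3) in WT, 0.16 ± 0.48 in HET and 0.24 ± 0.21 in KO. For the peptide precursors, *Tac1* minus *Penk* was −2.89 ± 0.16 in WT, −2.98 ± 0.28 in HET and −2.76 ± 0.17 in KO. *Pdyn* minus *Penk* was −3.75 ± 0.34 in WT, −3.56 ± 0.36 in HET and −3.29 ± 0.23 in KO. The KO values of this last pair, −3.32, −3.05 and −3.50, lay above the WT values of −3.61, −4.14 and −3.51, with KO replicate 3 and WT replicate 3 less than 0.01 apart.

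**Figure D4:**
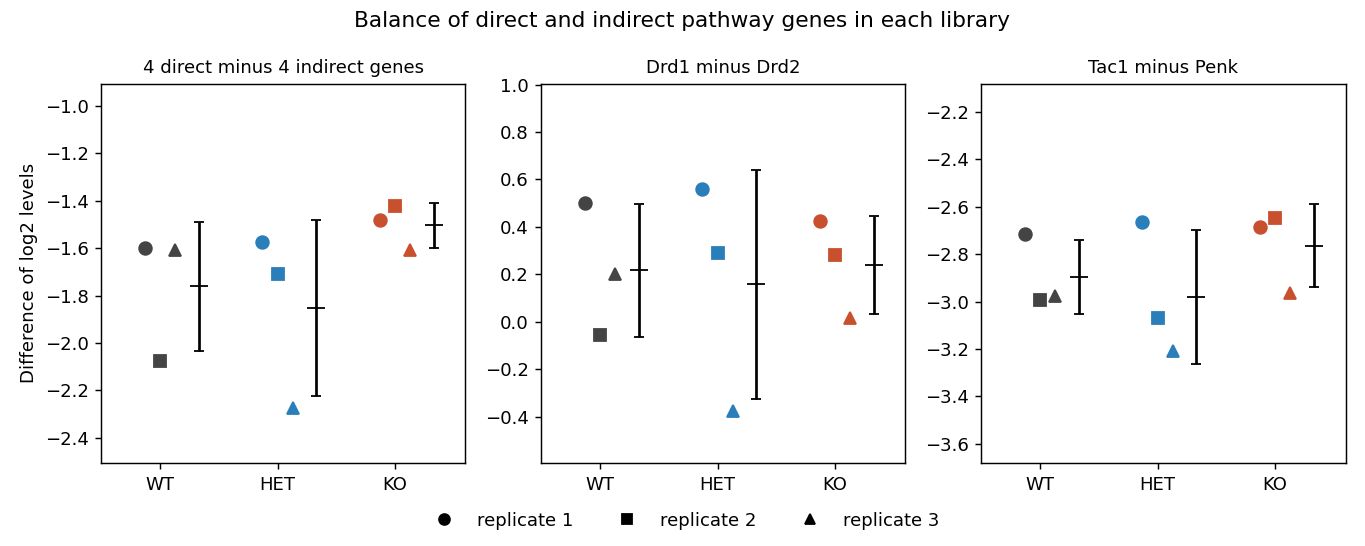
Difference of log2 levels in each library for the 4 direct minus the 4 indirect genes (left), *Drd1* minus *Drd2* (middle) and *Tac1* minus *Penk* (right), by genotype; symbols give the replicate number and bars the mean ± SD of 3 mice. The 3 KO libraries lie between −1.61 and −1.42 on the left, and the genotypes overlap in each panel.

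Other genes known to favour MSNs of the direct pathway were *Isl1* and *Ebf1*, both transcription factors, *Chrm4*, the muscarinic M4 receptor, *Slc35d3* and *Sfxn1*. In KO, 4 of these 5 had a lower and 1 a higher fitted value, with a median log2 fold change of −0.04 (0.005 over all genes), and in HET 1 was lower and 4 were higher. The largest value was that of *Slc35d3* in HET, 0.31 (standard error 0.22). Their slopes on the pan-MSN level were 1.37 for *Isl1*, 1.17 for *Ebf1*, 0.86 for *Slc35d3*, 0.79 for *Chrm4* and 0.18 for *Sfxn1*.

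Of the further indirect pathway genes, *Sp9*, a transcription factor of these neurons, *Upb1*, *Ttc12* and *Plxdc1* were tested, and *Gpr52* was not analysed here. All 4 had a lower fitted value in KO, between −0.29 (*Upb1*) and −0.06 (*Plxdc1*), with a median of −0.10. The mean log2 level of the 5 further direct genes minus that of these 4 was 1.53 ± 0.36 (SD, n = 3) in WT, 1.73 ± 0.19 in HET and 1.63 ± 0.15 in KO. Its differences were 0.20 for HET against WT, 0.10 for KO against WT and −0.09 for KO against HET, so that the first and the last had the opposite sign to those of the 8 genes. The median slope on the pan-MSN level was 0.86 for these direct and 0.25 for these indirect genes, so this score can also move with that level. It was lowest, at 1.12, in WT replicate 3, the library lowest in pan-MSN level. KO replicate 3, nearly as low in that level, was at 1.72. Slopes of the further indirect genes were 1.07 for *Upb1*, 0.44 for *Sp9*, 0.05 for *Ttc12* and −0.12 for *Plxdc1*. Among these 9 genes, 0 had an adjusted or an unadjusted p under 0.05 in limma in any of the 3 comparisons.

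The processing enzymes and receptors of the peptides were 11 genes, and 0 of them had an adjusted or an unadjusted p under 0.05 in limma in the 3 comparisons. The convertases and their helpers *Pcsk1*, *Pcsk2*, *Pcsk1n*, *Cpe*, *Pam* and *Scg5*, which cut and finish the peptides, had log2 fold changes in KO between −0.25 (*Scg5*) and 0.15 (*Pam*). Of the opioid receptors, *Oprk1*, the receptor for dynorphin, was at −0.19 (standard error 0.26), *Oprd1* at −0.09 (standard error 0.20) and *Oprm1* at 0.16 (standard error 0.42) in KO. The tachykinin receptors *Tacr1* and *Tacr3* were at −0.23 (standard error 0.25) and −0.55 (standard error 0.27, unadjusted p = 0.0683). The receptors *Tacr1* (slope 1.03), *Tacr3* (0.95), *Oprm1* (0.86), *Oprk1* (0.85) and *Oprd1* (0.52) had positive slopes on the pan-MSN level, whereas those of the 6 processing genes lay between −0.43 and −0.04.

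Among 11897 genes with a mean of at least 100 normalized counts, the genes whose log2 levels over the 9 libraries were most like the mean of the 4 direct pathway genes were *Ptcd1* (Pearson r 0.98), *Kcna4* (0.98) and *S100pbp* (0.98). Those most like the mean of the 4 indirect pathway genes were *Pde1b* (1.00), *Rxrg* (0.98) and *Foxp1* (0.98), of which *Pde1b* and *Foxp1* are pan-MSN genes. These are descriptions over 9 libraries, which share their normalization and differ in pan-MSN level.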

How the data were processed

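RNA-seq was made from the striatum of 3 WT, 3 HET and 3 KO mice. According to the study's methods and the labels, the authors quantified transcripts of GRCm38 with Salmon 0.9.1, with its GC bias correction. The authors made gene totals through tximport and scaled them by size factors of DESeq2 1.19.11 in R 3.6.0. The deposited signal is these normalized counts. They are not whole, so whole reads were not recovered, the depth is unknown, and precision comes from the spread between mice. The annotation release is not given in the sources used here.

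Samples were grouped by their titles, and each column name matched 1 title (0 unused columns). Symbols were found for 15457 of 15464 genes through GENCODE M21 on GRCm38. log2(normalized count + 1) of genes with at least 10 in at least 3 libraries was fitted with limma 3.58.1 in R 4.3.3 (trend option, all 9 libraries, no covariate) and adjusted by the Benjamini-Hochberg method with a threshold of 0.05. A further fit added the mean log2 level of the 12 pan-MSN genes and was adjusted over the 14227 other genes. Values of 1 gene of that list are not reported here. Exact two-sided permutation tests were run over libraries. Figures were drawn with matplotlib 3.10.9. In simulated KO libraries with an added log2 fold change of 1 in 200 of 14239 genes, 138 were called and 9 others, and with 0.5, 10 were called. The noise was drawn for each gene on its own, and the changed genes were drawn from all genes tested. Those have a median standard error of 0.15, against 0.28 for the 8 genes, so these rates do not hold for the 8 genes.

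Deviations from the genotype means were correlated between same-numbered libraries. Between HET and KO, r was 0.52, 0.28 and 0.51. It was 0.24, −0.22 and 0.02 between WT and KO, and 0.32, −0.01 and 0.01 between WT and HET. The highest value with WT (0.32) was above the lowest between HET and KO (0.28). Differently numbered libraries were not compared, so these values cannot show whether the numbers pair the libraries of any genotypes. The sources do not say what the numbers stand for.

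The members and gene lists were chosen with earlier results of these data known. The genes named were the 8 members, the further direct and indirect pathway genes, genes of the other lists with an unadjusted p under 0.05 or at the ends of a list's range, markers given beside a member, and the 3 genes most like each pathway. Others were named after their values were seen. Lists for interneurons, thalamic and septal neurons, choroid plexus, astrocytes, microglia, vessels, the ventral striatum and activity-induced genes were also followed. Alternatives were other pseudocounts, filters, scalings, variance priors, weights, a replicate block and leaving out libraries. Promoter windows are those of RefSeq on GRCm38.p6.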

Additional observations from a re-analysis of the deposited data

How the results depend on the processing

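With each pseudocount, filter, variance prior, median-of-ratios scaling, the replicate block, array weights, fits of the compared genotypes alone and each left-out library, 0 of the 8 genes and 0 of all genes passed the adjusted threshold in HET, KO and between KO and HET. With the replicate block, 0 of the 8 genes passed the unadjusted one either. Relative to the pan-MSN level, which put the median of all genes at 0.28 in KO against WT and at 0.32 in KO against HET, 5 genes passed in HET against WT, 3 in KO against WT and 6 in KO against HET, and 0 were members. Depth is unknown, so that the spread between 3 mice sets what can be detected, and signs of differences this small rest on single libraries. For the changes listed here the cause was not tested.

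Without each library in turn, members at an unadjusted p under 0.05 in limma numbered 0 to 3 in KO and 0 to 1 between KO and HET. Over all genes the same fits gave 70 to 289 and 141 to 298. The number of members was 1 in KO with array weights (395 of all genes) and without HET replicate 3 and KO replicate 3 (*Pdyn*, 217 of all genes). It was also 1 without WT replicate 3 and KO replicate 3, chosen after seeing the values (338 of all genes). Between KO and HET it was 1 in the fit of these genotypes alone (163 of all genes). The slopes of 3 members passed this threshold without WT replicate 3 and KO replicate 3. Without the genotype term, 4 member slopes passed the adjusted threshold, against 63 of all genes with a positive slope.

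Leaving out each library, the log2 fold change in HET ran from −0.25 to 0.29 (*Drd1*), −0.40 to 0.14 (*Tac1*), −0.13 to 0.38 (*Pdyn*), −0.18 to 0.41 (*Drd2*), −0.27 to 0.32 (*Adora2a*), −0.27 to 0.19 (*Penk*) and −0.11 to 0.47 (*Gpr6*). In KO it ran from −0.43 to 0.23 (*Tac1*), −0.027 to 0.56 (*Pdyn*), −0.22 to 0.14 (*Eya1*) and −0.52 to 0.00037 (*Penk*), and between KO and HET from −0.26 to 0.33 (*Tac1*), −0.20 to 0.39 (*Pdyn*), −0.048 to 0.31 (*Eya1*) and −0.39 to 0.013 (*Penk*). The sign held in each of these fits for *Eya1* in HET (−0.31 to −0.042). In KO it held for *Drd1* (−0.58 to −0.040), *Drd2* (−0.60 to −0.0039), *Adora2a* (−0.81 to −0.22) and *Gpr6* (−0.50 to −0.053). Between KO and HET it held for *Drd1* (−0.50 to −0.16), *Drd2* (−0.65 to −0.15), *Adora2a* (−0.66 to −0.39) and *Gpr6* (−0.69 to −0.15). The slope of *Eya1* ran from −0.44 to 0.41.

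Signs turned in these cases. Quantile normalization gave 0.00756 for *Penk* in HET and a slope of −0.060 for *Eya1*. Relative to the pan-MSN level, KO values were 0.025 (*Drd1*), 0.15 (*Tac1*), 0.24 (*Eya1*), 0.00173 (*Drd2*), 0.017 (*Penk*) and 0.053 (*Gpr6*), and those between KO and HET 0.29 (*Tac1*) and 0.073 (*Penk*). With the pan-MSN level as a covariate they were −0.000674 for *Adora2a* in HET, 0.082 (*Drd1*), 0.18 (*Tac1*), 0.067 (*Drd2*) and 0.099 (*Gpr6*) in KO, and 0.049 (*Drd1*), 0.33 (*Tac1*) and 0.053 (*Penk*) between KO and HET. Array weights gave 0.00583 (*Tac1*), −0.12 (*Drd2*), −0.15 (*Adora2a*) and −0.0312 (*Gpr6*) in HET, 0.058 for *Tac1* in KO and 0.052 between KO and HET. Without HET replicate 3 and KO replicate 3, the HET values were 0.14 (*Tac1*), −0.12 (*Drd2*), −0.10 (*Adora2a*), 0.11 (*Penk*) and −0.0729 (*Gpr6*), the KO values 0.23 (*Tac1*) and 0.00037 (*Penk*), and *Tac1* was at 0.091 between them. Without WT replicate 3 and KO replicate 3, the HET values were −0.25 (*Drd1*), −0.18 (*Drd2*), −0.27 (*Adora2a*) and −0.11 (*Gpr6*), those between KO and HET 0.33 (*Tac1*), −0.048 (*Eya1*) and 0.013 (*Penk*), and the slopes −0.21 (*Tac1*) and −0.091 (*Penk*).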

Other observations

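The 3 peptide precursors and the 4 receptors did not vary together in every library, a grouping chosen after the values were seen. The mean log2 level of *Tac1*, *Pdyn* and *Penk* minus that of *Drd1*, *Drd2*, *Adora2a* and *Gpr6* was 0.33, 0.15 and 0.49 in the WT, 0.59, 0.57 and −0.47 in the HET and 0.66, 0.93 and 0.13 in the KO libraries. HET replicate 3 was the only library below 0, with *Drd2* and *Gpr6* at their highest and *Penk* at 15407. In HET and KO replicate 3 was the lowest of its genotype, and these libraries are the ones that the first principal component set apart (−33.8 and −34.2, against −1.36 to 17.0 in the others). The longest coding transcripts have 1230 (*Tac1*), 1449 (*Penk*) and 2386 bases (*Pdyn*) for the precursors, and 1786 (*Gpr6*), 2547 (*Drd2*), 2596 (*Adora2a*) and 3576 bases (*Drd1*) for the receptors, and the part of transcript length was not tested.

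Among the cells outside the MSN lists, cholinergic interneurons also use *Drd2*. Their markers *Chat*, *Slc5a7* and *Slc18a3* were present in every library, and *Chat* had 341.5, 428.8 and 203.3 normalized counts in the WT, 404.6, 272.4 and 353.1 in the HET and 328.2, 239.0 and 161.3 in the KO libraries. The list of 7 interneuron genes had a median log2 fold change of −0.23 in KO and 0.04 in HET. The 8 activity-induced genes, among them *Fos* and *Npas4*, had a median of 0.14 in KO and −0.15 in HET, and their summed level was highest in HET replicate 3 (44070) and KO replicate 2 (43527).

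KO replicate 2, which had the highest *Pdyn* of the KO libraries, also had the highest *Drd3* (48.6 normalized counts, against at most 24.5 in the other libraries) and the highest *Cartpt* (302.9, against 46.9 to 155.0), genes that are richer in the ventral striatum. The remaining gene of this list, *Crhr2*, was lowest of the KO libraries there (42.53, 36.71 and 38.15 in KO replicates 1 to 3). HET replicate 1, with the highest *Pdyn* of all libraries, had 19.6 for *Drd3* and 86.7 for *Cartpt*. Of the thalamic and septal markers, *Zic1* (870.0, against at most 514.9 in the other libraries), *Zic4* (112.5, against at most 92.4) and *Slc17a6* (423.5, against at most 416.4) were also highest in KO replicate 2. *Tcf7l2* and *Lhx2* were highest in HET replicate 3 and *Calb2* in WT replicate 3. The part of ventral or septal tissue in the *Pdyn* level was not tested. *Crhr2* of the ventral striatum list had an unadjusted p of 0.0284 in KO (log2 fold change 0.65, standard error 0.26, adjusted p = 0.999 in limma with Benjamini-Hochberg adjustment). It was the only gene of the lists at an unadjusted p under 0.05. The median log2 fold changes in KO were 0.04 for cortical, 0.07 for thalamic and septal, 0.03 for oligodendrocyte, 0.03 for astrocyte, −0.03 for microglia, 0.001 for vessel and 0.18 for choroid plexus genes, of which 4 of 6 were tested. In HET the oligodendrocyte genes had a median of 0.33, with 6 of 6 higher and 0 of 6 at an unadjusted p under 0.05 in limma. *Ttr*, a defining choroid plexus gene, did not pass the filter of at least 10 normalized counts in at least 3 libraries. It was listed at 0 in WT replicate 1 and KO replicate 3.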
